A study of Mus musculus with 141 samples.

Results

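The comparison set the 16 lungs with the highest level of 3 interferon-stimulated genes against the 16 lungs with the lowest, which is 32 of the 47 lungs and 32 of all 141 libraries of the series. The groups were chosen by these measured lung levels alone. Each lung was scored by the mean of log2(CPM + 1) of Isg15, Irf7 and Oasl2, where CPM is the expected count as a share of 1000000 counts of the library after the ribosomal RNA gene Rn45s was left out. The remaining 15 lungs lay between the groups and were not compared. RNA-seq had been made from whole lung, liver and kidney of 1 male mouse of each of 47 Collaborative Cross strains, recombinant inbred lines that each carry a different mosaic of the same founder genomes. Mice of both groups were adult males aged 8 to 12 weeks, fed the NTP 2000 diet and held in metal mesh chambers with clear air for 6 hours on weekdays over 2 weeks, and the labels give no infection or drug in either group beyond the nembutal anesthesia before death. By the labels, the groups differed in strain alone. The study's methods also name sequencing batches, which the labels do not assign to libraries, so with 1 mouse per strain the strain, the individual animal and the batch cannot be told apart, for the groups and for any single mouse below. Because the lung values chose the groups, the lung differences below are a description without a test. The livers and kidneys of the same 32 mice did not enter the score and carry the tests. The groups and the gene lists were, however, chosen with earlier results of these data known.

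Interferons are secreted proteins that make cells resistant to viruses. Type I and type III interferons bind their receptors and activate the kinases Jak1 and Tyk2, and transcription factors such as Stat2 and Irf9 then bind the interferon-stimulated response element of target promoters. The products of these targets degrade viral RNA (the Oas family), trap nucleocapsids (the Mx proteins) or block translation (the Ifit proteins). Interferon gamma, made by T and NK cells, acts through a receptor of its own and raises the guanylate-binding proteins and immunity-related GTPases, MHC molecules and the chemokines Cxcl9 and Cxcl10. In the lung, which meets inhaled viruses, epithelial cells and alveolar macrophages are known sources of these responses.

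The score ran from 6.32 in the lung of strain CC040 to 1.96 in that of CC015. CC040 stood apart from the next lungs, CC030 at 3.70 and CC038 at 3.45. The limits of the groups were not gaps: the last lung inside the high group (CC046) scored 2.73 and the first outside it (CC003) 2.72, while the last lung between the groups (CC044) scored 2.51 and the first of the low group (CC017) 2.49. Isg15, a ubiquitin-like modifier, was at 3.56 to 130.2 CPM with a median of 5.97 in the high lungs and at 1.62 to 4.83 CPM with a median of 2.68 in the low lungs. Oasl2 was at 23.7 to 405 CPM (median 49.7) against 13.8 to 41.8 CPM (median 29.1). Irf7 added little information, since it had 3 counts or fewer in 43 of the 47 lungs and 0 counts in 17. These 3 genes are left out of everything that follows.

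Several libraries stood apart before any comparison. Lung libraries held 2320936 to 17025147 counts without Rn45s, and Rn45s itself took a median of 18.0% of a lung library. A single gene, Lars2, a mitochondrial leucyl-tRNA synthetase, took a median of 7.75% of the remaining counts and as much as 66.6% in CC015 and 56.9% in CC055, both low lungs. Its share was 0.353% to 35.5% in the high lungs (median 8.05%) and 0.0478% to 66.6% in the low lungs (median 14.1%). Since CPM is a share of the library, the score was recomputed with Lars2 left out: 11 of the 16 high and 12 of the 16 low lungs kept their group, and 2 low lungs entered the high group, among them CC055, which went from rank 33 to rank 6. The part of this share in the lung differences was not tested further than by the settings given below. From here on, CPM is scaled with TMM factors (trimmed means of the log ratios between libraries), which the bulk of the genes sets. Some mice stood apart in many genes. Of the 32 compared, CC040 and CC016 (rank 4) did so in the genes of this response: in 77 lung genes over 10 CPM CC040 was over 2-fold above each of the other 46 mice, and CC016 was so in 17 genes in lung, 176 in liver and 53 in kidney. This was not particular to them, since 120 genes were so in the lung of CC037 and 111 in the kidney of CC020, both in the middle group. The main lists are given with and without CC040 and CC016.

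**Figure D1:**
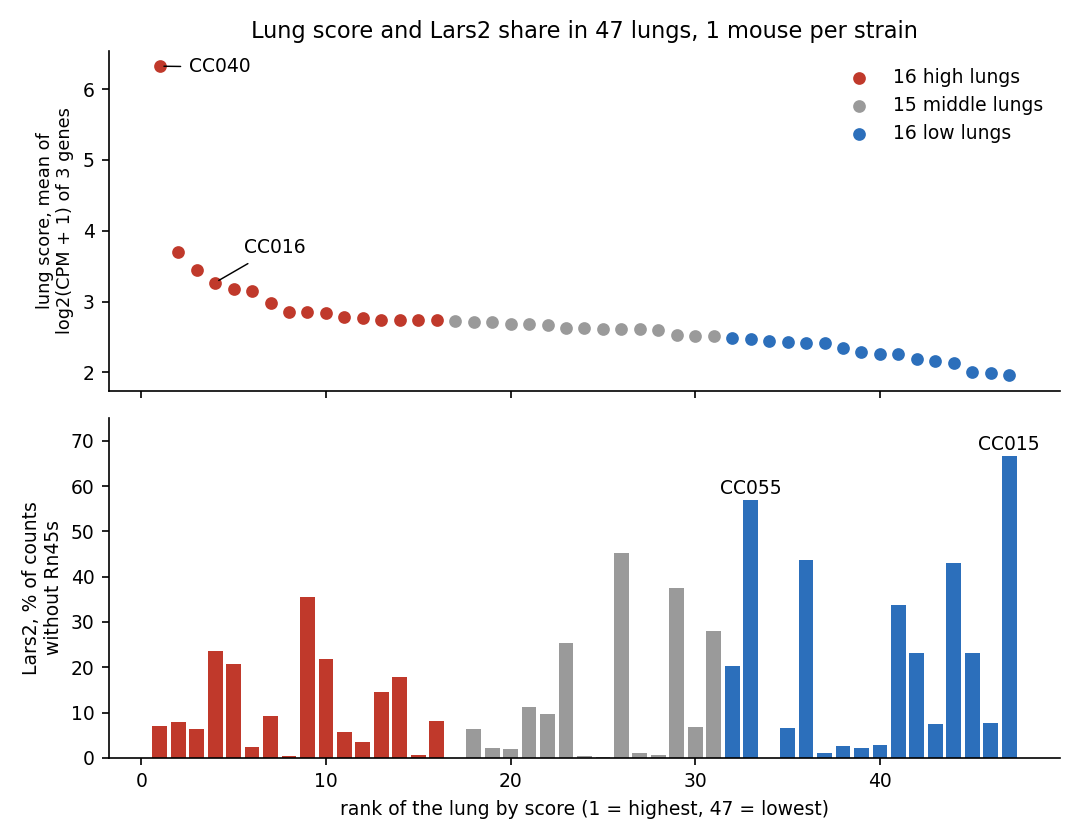
Top, the lung score (mean of log2(CPM + 1) of Isg15, Irf7 and Oasl2, y axis) of the 47 lungs in order of rank (x axis), with the 16 high lungs in red, the 15 middle lungs in grey and the 16 low lungs in blue. Bottom, the share of Lars2 in the counts without Rn45s, in percent, for the same lungs; CC040 scores 6.32 and the next lung 3.70, while CC015 and CC055 in the low group reach 66.6% and 56.9% of Lars2.

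Tissue labels were checked with defining genes. In all 32 lungs Sftpc, the surfactant protein of alveolar type 2 cells, was at 4849 CPM or more, and Scgb1a1, the secretoglobin of club cells, at 6127 CPM or more. Ager, of alveolar type 1 cells, was low, at 0 to 5.84 CPM, although alveolar type 1 cells line most of the lung. In the livers Alb was at 40242 CPM or more and in the kidneys Kap at 10319 CPM or more. Traces of the other organs were seen in the lungs, with the kidney gene Kap between 3.20 and 137 CPM with a median of 15.7 in the high group and 3.26 to 170.1 CPM with a median of 32.5 in the low group, and with Alb up to 878 and 873 CPM.

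Promoters of some of the genes described below, but not of all, hold letters in common that the rule did not use. The motif searched, GAAANNGAAA, is the core of the interferon-stimulated response element, with N for any base, read on both strands and with overlapping matches allowed. It was found in the 300 bases around the start site, from 250 before to 50 after, of 17 of the 37 interferon-stimulated genes tested in lung that had a RefSeq window (45.9%) and of 7 of 7 interferon-inducible GTPases (100%), against 363 of the 10005 genes tested in lung with a window (3.63%) and 3.44% of all 32851 windows of this length. The windows of 4 genes follow, from RefSeq on the build GRCm38.p6, because these genes hold the motif and differ in lung by about 1 or more on the log2 scale. Capitals mark the matches. The expression files use the older Build37. The windows are, in order, Oas3 at chr5:120777610-120777909 (minus strand), Oas1a at chr5:120907476-120907775 (minus strand, 2 overlapping matches), Rsad2 at chr12:26456403-26456702 (minus strand) and Gbp3 at chr3:142559794-142560093 (plus strand, 2 overlapping matches), each written along the gene's own strand.
Oas3: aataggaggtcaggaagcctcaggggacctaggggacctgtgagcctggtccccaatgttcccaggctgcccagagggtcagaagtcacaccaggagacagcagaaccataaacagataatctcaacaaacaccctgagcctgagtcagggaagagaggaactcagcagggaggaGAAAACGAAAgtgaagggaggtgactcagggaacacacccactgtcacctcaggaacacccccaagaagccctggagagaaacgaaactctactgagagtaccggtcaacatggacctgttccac
Oas1a: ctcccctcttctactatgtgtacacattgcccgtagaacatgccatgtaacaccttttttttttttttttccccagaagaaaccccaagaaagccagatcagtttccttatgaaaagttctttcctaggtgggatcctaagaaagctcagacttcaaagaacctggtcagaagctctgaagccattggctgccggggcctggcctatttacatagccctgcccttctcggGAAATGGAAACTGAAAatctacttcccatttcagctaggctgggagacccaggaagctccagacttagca
Rsad2: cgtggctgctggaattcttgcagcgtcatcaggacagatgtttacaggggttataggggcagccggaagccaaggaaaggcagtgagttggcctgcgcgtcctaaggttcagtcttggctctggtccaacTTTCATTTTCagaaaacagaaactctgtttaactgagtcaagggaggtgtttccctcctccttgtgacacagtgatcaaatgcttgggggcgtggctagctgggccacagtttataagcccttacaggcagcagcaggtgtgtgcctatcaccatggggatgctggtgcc
Gbp3: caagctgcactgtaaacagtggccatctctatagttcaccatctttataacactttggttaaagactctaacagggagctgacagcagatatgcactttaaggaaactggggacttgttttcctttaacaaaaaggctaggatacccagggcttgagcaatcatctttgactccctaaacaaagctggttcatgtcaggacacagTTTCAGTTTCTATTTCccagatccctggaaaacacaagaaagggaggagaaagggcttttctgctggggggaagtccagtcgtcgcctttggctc
In Oas3 and Oas1a the match reads along the gene, in Rsad2 and Gbp3 on the opposite strand. It ended 65 bases before the start site in Oas3, 110 bases before it in Rsad2, 10 and 4 bases before it in Oas1a, and 35 and 29 bases before it in Gbp3. A match describes these letters and is not evidence that a factor binds there. No window was used here for Oas2, Mx1, Zbp1, Rtp4 and Usp18.

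In lung, all 49 tested genes of a list of 60 interferon-stimulated antiviral genes had a higher mean in the high group, with a median log2 difference of 0.46 (lowest 0.02, highest 2.14). Over all 13310 genes tested in lung, 51.3% had a difference above 0, and the median difference was 0.00. Of the 60 genes, 58 were in the files and 9 of those were too low to be tested. Differences are means of log2 CPM, high minus low, with the standard error of the limma-voom fit of 16 against 16 lungs. Unadjusted p-values under 0.05 with a higher level would count 29 of the 49, against 3.3% of all genes (2.69% had such a p with a lower level and 5.99% in either direction), and nothing is read from this, because these lungs were chosen for genes of the same response. No gene of the 13310 had groups that did not overlap.

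The Oas enzymes, which make a messenger that switches on an RNA-degrading enzyme, differed most. Oas2 was between 3.22 and 209.6 CPM with a median of 19.7 in the high lungs and 1.05 to 46.2 CPM with a median of 5.08 in the low lungs, a difference of 2.14 ± 0.55. Oas3 was between 2.41 and 219 CPM with a median of 6.04 against 0 to 6.71 CPM with a median of 2.29, a difference of 1.75 ± 0.52, and each of the 16 high lungs lay above the median of the low lungs. Oas1a was between 1.66 and 63.3 CPM with a median of 5.67 against 0.900 to 7.46 CPM with a median of 2.61, a difference of 1.42 ± 0.38. In all 3 the highest value was that of CC040, and the next highest high lungs were at 50.5 CPM for Oas2, 28.5 CPM for Oas3 and 22.5 CPM for Oas1a. The groups overlapped in each. Oasl1, a relative that limits translation of Irf7, was between 0.782 and 75 CPM with a median of 2.42 against 0.601 to 3.88 CPM with a median of 1.65, a difference of 1.11 ± 0.42.

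Other effectors followed with smaller differences. Rsad2, the enzyme viperin, which makes a nucleotide that stops viral polymerases, was between 11 and 346 CPM with a median of 22.3 in the high and 6.31 to 48.4 CPM with a median of 14.1 in the low lungs, a difference of 0.99 ± 0.38. Apart from CC040, the highest high lung (50.7 CPM) was near the highest low lung. Mx1, a GTPase against influenza viruses, was low, between 0 and 19.8 CPM with a median of 1.18 against 0 to 3.31 CPM with a median of 0.543, a difference of 1.14 ± 0.61. Ifi44 differed by 1.13 ± 0.41 and ran between 2.99 and 187 CPM with a median of 14.9 in the high lungs against 4.70 to 28.2 CPM with a median of 7.25. Zbp1, a sensor of Z-form nucleic acid that triggers cell death, differed by 1.0 ± 0.45, and Ifi204, a DNA-binding protein of the p200 family, by 1.01 ± 0.49. For both genes CC040 was the highest and CC016 the second highest of the 47 lungs, Zbp1 at 77.7 and 50.3 CPM and Ifi204 at 153 and 107 CPM. Gm4951, an interferon-inducible GTPase, was the exception among the 10 with the largest differences, with CC016 (81.0 CPM) above CC040 (32.7 CPM), between 0.479 and 81 CPM with a median of 8.48 against 0 to 28.8 CPM with a median of 2.68 and a difference of 1.39 ± 0.75. The smallest differences of the list were those of Slfn5 (0.02 ± 0.11), Trim25, a ubiquitin ligase that activates RIG-I (0.06 ± 0.10), and Ifit2, a translation inhibitor (0.08 ± 0.25), named after their values were seen.

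**Figure D2:**
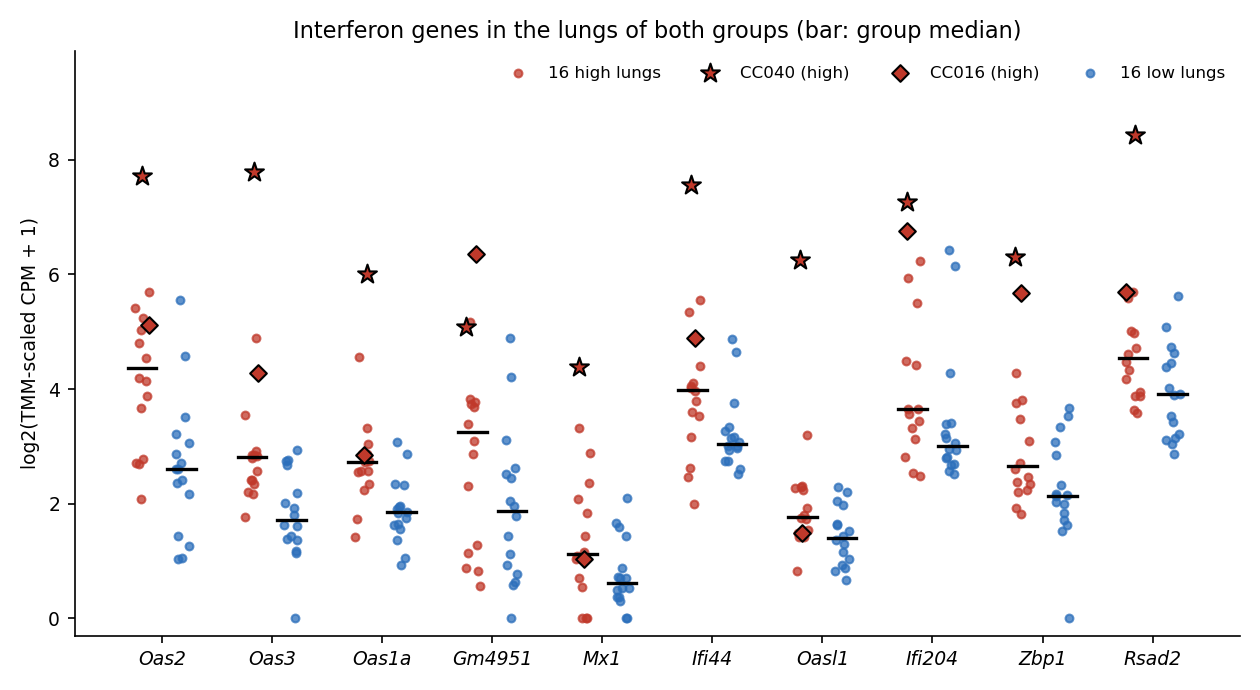
Each point is 1 lung, as log2 of TMM-scaled CPM + 1 (y axis), for the 10 interferon-stimulated genes with the largest lung differences (x axis), with the 16 high lungs in red and the 16 low lungs in blue. Black bars are group medians, the star is CC040 and the diamond CC016. The groups overlap for every gene, and CC040 is the highest lung for each gene but Gm4951.

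How far these differences rest on 1 mouse was measured directly. Without CC040 the median difference of the list in lung was 0.29 (44 of 49 above 0), without CC016 it was 0.43 (48 of 49), and without both 0.27 (43 of 49). The 5 genes below 0 without CC040 were Ifit2, Ifi27l2a, Ifit3, Slfn5 and Trim25, at -0.12 to -0.01. The 4 Oas genes kept most of their difference without CC040: 1.87 for Oas2, 1.40 for Oas3, 1.17 for Oas1a and 0.78 for Oasl1. With the groups set by the score without Lars2, the median over the list was 0.68 and 49 of 49 were above 0, and with the groups set by TPM it was 0.29 and 46 of 49.

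The lung of CC040 had the highest levels of the interferon-stimulated list. It was the highest of the 47 lungs for 45 of the 49 interferon-stimulated genes tested, against 5.21% of all 13310 genes, and its level was a median of 6.40 times the median of the other 46 lungs. For 27 of the 49 it was over 2-fold above every other lung. Oas3 was at 219 CPM in CC040 and at most 28.5 CPM elsewhere, Rsad2 at 346 against 75.4 CPM, Oasl1 at 75.02 against 8.22 CPM, and Ifit1, which binds foreign RNA caps, at 275 against 56.1 CPM. The liver of the same mouse was the highest of the 47 for 2 of 42 interferon-stimulated genes (1.57% of all genes) and its kidney for 1 of 42 (1.32%). Its level was then a median of 1.30 times that of the other livers and 1.37 times that of the other kidneys. In its lung Saa3, an acute-phase protein, was at 255 against 13.6 CPM, the chemokine Cxcl10 at 61.3 against 10.03 CPM and the neutrophil granule gene Ngp at 63.9 against 8.93 CPM. Siglec1, a sialic acid receptor of macrophages (350 against 66.3 CPM), and Fcgr1, an antibody receptor (83.1 against 11.6 CPM), also stood apart, and were picked after their values were seen.

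CC016 had another pattern, in all 3 tissues. Its level of interferon-inducible GTPases was the highest of the 47 mice for 12 of 12 genes tested in lung, 11 of 11 in liver and 9 of 9 in kidney, where 1.33%, 7.83% and 2.21% of all genes tested were highest in this mouse. The median level over the other mice's median was 14.7-fold in lung, 17.2-fold in liver and 26.2-fold in kidney. Igtp, a GTPase that acts on vacuoles of intracellular parasites, was at 605 CPM in its lung (at most 184 in other lungs), 738 CPM in its liver (at most 139.9) and 829 CPM in its kidney (at most 44.6). Gbp2, a guanylate-binding protein of the same defence, was at 1126 CPM in lung (next 214), 343 CPM in liver (next 23.5) and 412 CPM in kidney (next 41.4). Of the interferon-stimulated list, CC016 was the highest of the 47 for 2 of 49 in lung, 18 of 42 in liver and 18 of 42 in kidney. Macrophage genes moved with this in its liver, where it was the highest of the 47 for 6 of 9 (median 5.76 times the other livers), and for 0 of 13 in lung and 0 of 10 in kidney. The white cell genes Lyz2 (534 CPM, next 88.0), Cybb (296, next 44) and Itgb2 (114, next 19.2), picked after their values were seen, were also apart in that liver, and MHC class II genes were at a median of 31.5 times the other livers. The part of these cells in the levels of CC016 was not tested. Ifng, the gene of interferon gamma itself, had its highest count of the series in CC016 in each tissue, 13 in lung, 11 in liver and 5 in kidney. No other liver or kidney had over 3 counts of Ifng.

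**Figure D3:**
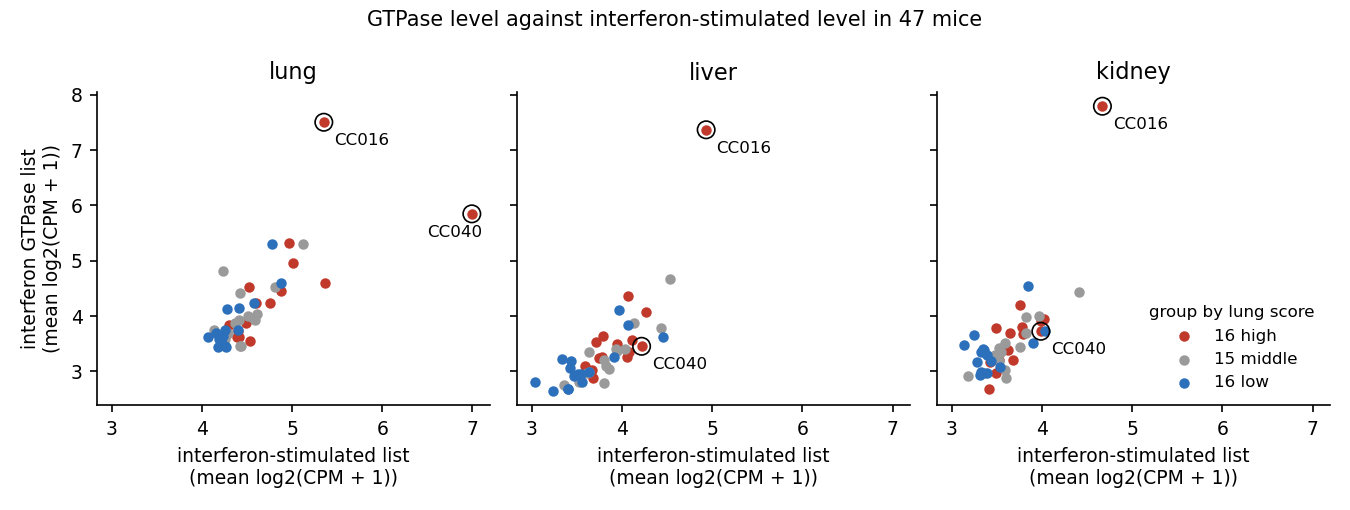
Each point is 1 mouse, with the mean log2(TMM-scaled CPM + 1) of the tested interferon-stimulated genes (x axis) and of the tested interferon-inducible GTPases (y axis) in lung, liver and kidney, coloured by lung group. CC040 is far to the right in lung and within the other mice in liver and kidney, while CC016 is at the top in all 3 tissues (GTPase level 7.50 in lung, 7.37 in liver and 7.79 in kidney).

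Of the sensors and transcription factors of the pathway, 15 of 19 tested were above 0 in lung, with a median of 0.23 (0.16 without CC040, 0.07 without CC040 and CC016). Stat2 differed by 0.30 ± 0.16, and Irf9 was at 1.80 CPM or less and not tested. Nlrc5, the transactivator of MHC class I genes, was between 30.8 and 387 CPM with a median of 53.6 against 17.1 to 97.9 CPM with a median of 37.2, a difference of 0.89 ± 0.31, with CC016 highest and CC040 second. The RNA sensors Ifih1 and Dhx58 differed by 0.65 ± 0.20 and 0.61 ± 0.26, and in both 15 of the 16 high lungs were above the low median. Ddx58, which encodes RIG-I, differed by 0.23 ± 0.11, and Irf1 by 0.03 ± 0.15.

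The interferons and their receptors had differences near 0, or too few counts to be tested. Ifnb1, Ifna2, Ifna4, Ifne, Ifnl2 and Ifnl3 had at most 1 count in any of the 141 libraries. Of the 20 type I and III interferon genes in the files, Ifnk, a type I interferon of skin keratinocytes, was the 1 with over 3 counts in a lung; it was so in all 47 lungs, with 12 counts in CC040 and a difference of 0.16 ± 0.17. Ifnar1, a chain of the type I receptor, was between 111 and 169 CPM with a median of 148 in the high lungs and 144 to 176 CPM with a median of 152 in the low lungs, a difference of -0.10 ± 0.05. Its partner Ifnar2 differed by 0.01 ± 0.08. Ifngr2, of the interferon gamma receptor, differed by -0.25 ± 0.13, although its highest value, 124 CPM, was in CC040. Over the 7 tested interferons and receptors the median was 0.01. The brakes of the pathway had a median of -0.09 over 6 tested genes, with Usp15 at -0.25 ± 0.19, the phosphatase Ptpn2 at -0.08 ± 0.10 and the phosphatase Ptpn6 at 0.26 ± 0.23. Socs1, the best known brake, was at 0.391 CPM or less in these lungs and was not tested. Usp18, which is both a target and a brake of the type I receptor, was between 13.9 and 181 CPM with a median of 22.9 against 14.4 to 24.1 CPM with a median of 16.3, a difference of 0.63 ± 0.23.

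The interferon-inducible GTPases had the largest median difference among the pathway lists in lung, 0.89 over 12 tested genes, 11 of them above 0. That median was 0.69 without CC016, 0.80 without CC040 and 0.57 without both. Gbp6 was between 8.96 and 241 CPM with a median of 20.02 in the high and 6.48 to 56.3 CPM with a median of 12 in the low lungs, a difference of 1.03 ± 0.36, and 15 of 16 high lungs were above the low median. Gbp8 differed by 1.19 ± 0.42. Gbp10 and Iigp1, at medians of 1.14 and 1.22 CPM in the high lungs, differed by 1.32 ± 0.70 and 1.07 ± 0.67, both within 2 standard errors of 0. Igtp was between 19.9 and 605 CPM with a median of 40.1 against 16.6 to 120.2 CPM with a median of 23.5, a difference of 0.97 ± 0.38, and Irgm1, which directs autophagy, differed by 0.72 ± 0.26.

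MHC class I genes and the proteins that load them were higher in the high lungs for 15 of 15 tested, with a median of 0.52 (0.28 without CC040 and CC016). It was 0.38 (15 of 15) with the white cell gene Ptprc as a covariate and 0.14 (15 of 16) with the groups set by TPM. Tap1, of the peptide transporter, was between 1.82 and 24 CPM with a median of 3.49 in the high and 0 to 4.16 CPM with a median of 2.01 in the low lungs, a difference of 1.10 ± 0.32. H2-D1, a classical class I molecule, was between 278 and 998 CPM with a median of 415 against 80.1 to 530.2 CPM with a median of 274, a difference of 0.68 ± 0.18, and all 16 high lungs were above the low median. H2-T22 differed by 1.05 ± 0.35, H2-T23 by 0.64 ± 0.39 and the immunoproteasome subunit Psmb9 by 0.61 ± 0.21. The class I genes lie in a family of near copies that differ between strains, so their counts are uncertain. MHC class II genes had a median of 0.21 (8 of 8 above 0), with Cd74 at 0.36 ± 0.16, H2-Ab1 at 0.24 ± 0.18 and H2-Aa at 0.22 ± 0.15. The class II median was 0.10 (7 of 8) without CC040 and CC016 and 0.09 (6 of 8) with Ptprc as a covariate. With the groups set by TPM it was -0.0016, with 4 of 8 above 0. H2-Eb1 split the lungs within both groups, between 8.96 and 422 CPM with a median of 209 in the high and 4.50 to 313 CPM with a median of 186 in the low lungs, and differed by 0.85 ± 0.65.

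Chemokines had a median of 0.60 in lung over 9 tested genes, 7 of them above 0. Cxcl9, which draws T cells and is induced by interferon gamma, differed by 1.46 ± 0.63 and was between 0.391 and 26.3 CPM with a median of 1.39 against 0 to 5.40 CPM with a median of 0.809. Cxcl10 differed by 1.24 ± 0.52, or 0.88 without CC040. Cxcl13, which draws B cells, differed by 1.24 ± 0.49 and the monocyte chemokine Ccl2 by 0.91 ± 0.37. Genes of acute inflammation had a median of 0.26 (9 of 11 above 0), which was 0.12 without CC040: Saa3 differed by 1.18 ± 0.65, or 0.74 without that mouse, S100a8 by 1.17 ± 0.48 and Il1b by 0.69 ± 0.30.

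Markers of several blood cells were also higher in the high lungs. All 6 tested neutrophil genes were, with a median of 0.93 (0.77 without CC040, 0.63 without CC040 and CC016). Ngp differed by 1.21 ± 0.64, the collagenase Mmp8 by 0.98 ± 0.45 and Retnlg by 0.88 ± 0.41. The level of the neutrophil list is the mean of log2(CPM + 1) over its tested genes. It was 2.31 to 5.92 in the high lungs and 1.501 to 4.25 in the low lungs. Of 13 macrophage genes 12 were higher, with a median of 0.22, led by the complement genes C1qa (0.70 ± 0.24) and C1qb (0.70 ± 0.23). CC040 was the highest lung for 8 of the 13. The median was 0.15 (12 of 13) without CC040 and 0.09 (11 of 13) without CC040 and CC016. With Lars2 left out of the score it was 0.39, with 8 of 13 above 0. The list level was 4.97 to 6.53 against 4.76 to 5.67. T and NK cell genes were higher for 9 of 9, with a median of 0.35 and Gzmb, a granule protease, at 1.25 ± 0.45. This median was 0.27 (9 of 9) without CC040 and CC016 and 0.13 (6 of 9) with Ptprc as a covariate. B cell genes had a median of 0.05 (5 of 7), with Mzb1 at 0.32 ± 0.35 and Pax5 at -0.09 ± 0.37. That median was 0.18 (7 of 7) without CC016 and -0.34 (1 of 7) with the white cell gene Ptprc as a covariate. Of the plasmacytoid dendritic cell list 3 of 6 were tested (median 0.30), among them Bst2, itself an interferon target, and the defining marker Siglech was at 0.846 CPM or less in every one of the 32 lungs. Proliferation genes were higher for 7 of 7, with a median of 0.38 and Ccnb1 at 0.59 ± 0.25. In whole tissue, more cells of a type and more RNA per cell cannot be told apart, and the part of these cells in the interferon differences was tested only by adding the level of Ptprc, the CD45 gene of all white blood cells, to the fit. The interferon list then had a median of 0.35 in lung (48 of 49 above 0), 0.26 in liver (38 of 42) and 0.30 in kidney (36 of 42). In liver 8 of its 42 genes were then higher and 1 lower at an unadjusted limma-voom p under 0.05, against 14 higher without Ptprc. Over all liver genes 262 of 10205 were then higher at this p. In kidney 23 of 42 were higher with and without Ptprc, and 283 of all 11908 genes with it.

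The list medians of markers of the resident cells of the lung were near 0, while single members differed more. Alveolar epithelial genes had a median of 0.08 (5 of 10 above 0), airway genes 0.14 (7 of 8) and endothelial, stromal and muscle genes 0.01 (5 of 10). Pdpn, of alveolar type 1 cells, differed by -1.44 ± 0.74, with values down to 0 CPM in the high group, Sftpc differed by 0.17 ± 0.09 and Foxj1, of ciliated cells, by 0.16 ± 0.16. The largest airway differences were those of Muc5ac (0.78), Bpifa1 (0.75) and Muc5b (0.61). In the alveolar list Ager (0.38) and Abca3 (0.35) followed Pdpn in size. In the endothelial, stromal and muscle list Tek (-0.63) and Tnni3 (0.40) differed most. Handling and heat shock genes had a median of -0.06 (4 of 10 above 0), clock genes -0.06 (4 of 10), the red cell gene Alas2 was the 1 tested of its list at 0.25, and the genes that mark the 3 organs had 0.24 (6 of 8). The largest single differences in these lists were those of Hspa1a (-0.58), Hspa1b (-0.55) and the liver genes Ttr (0.53) and Apoa1 (0.48). Ciart (-0.27) differed most in the clock list.

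Outside all lists, the genes with the largest lung differences were mostly genes listed at 0 in some high lungs and well above it in others. C1s2, a complement protease, was between 0 and 14.8 CPM with a median of 7.35 in the high and between 0 and 24.7 CPM with a median of 1.27 in the low lungs, a difference of 2.14 ± 0.86. Ltf, lactoferrin, an iron-binding protein of neutrophils and airway glands, was between 6.99 and 1027 CPM with a median of 75.1 in the high and between 2.34 and 324 CPM with a median of 16.5 in the low lungs, a difference of 1.91 ± 0.71. 4931408C20Rik differed by 2.25 ± 1.05, the class II pseudogene H2-Ea-ps by 1.52 ± 1.75, and the fast muscle genes Myh4, Tnnc2 and Tnnt3 by 1.91 ± 1.07, 1.38 ± 1.48 and 1.37 ± 1.05. Fabp12 differed by 1.36 ± 0.88 and Gm12250 by 1.35 ± 0.60. Gp2, a receptor of M cells, differed by 1.82 ± 0.80 and reached 76.5 CPM in CC040 and at most 11.8 CPM elsewhere. On the lower side Hecw1 differed by -2.22 ± 0.97, Mir703 by -1.77 ± 0.88, Atp1a4, a sperm sodium pump, by -1.61 ± 0.93, Trim5, a restriction factor of retroviruses, by -1.52 ± 1.16, Galnt13 by -1.29 ± 0.65 and Gabra3, a subunit of the GABA receptor, by -1.22 ± 0.79. Zfp429 differed by -1.06 ± 0.68, Fgl1 by -1.03 ± 0.98, AW549542 by -1.02 ± 0.44 and Kctd10 by -0.96 ± 0.40. Trim5 was between 0 and 31.4 CPM with a median of 2.06 in the high and between 0 and 30.2 CPM with a median of 3.04 in the low lungs, and its difference was within 2 standard errors of 0.

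The livers and kidneys of the same mice were then compared, to ask whether the strains with high lung scores also stood high elsewhere. In the limma-voom fit over all genes, no gene reached q ≤ 0.1 (Benjamini-Hochberg) in liver (10205 tested, smallest q 0.62) or in kidney (11908 tested, smallest q 0.64). edgeR's quasi-likelihood test also called 0 in both tissues, and DESeq2 called 3 in liver and 0 in kidney. Unadjusted p-values under 0.05 numbered 545 in liver (5.34% of the genes, 2.68% with a higher and 2.66% with a lower level) and 503 in kidney (4.22%, 2.16% higher and 2.07% lower). By limma-voom, then, no single gene of either organ passed the threshold.

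The direction of the interferon list was the same in both organs. In liver 38 of 42 tested genes were above 0 with a median difference of 0.37, and 14 of the 42 had an unadjusted p under 0.05 and a higher level, against 2.68% of all genes. In kidney 36 of 42 were above 0 with a median of 0.30, and 23 of the 42 had such a p, against 2.16% of all genes. The medians over all genes were 0.00 in both. Genes of 1 response in 1 mouse are not independent of each other, so these counts are a description. Of the list, 12 members had an unadjusted p under 0.05 and a higher level in both liver and kidney, against 37 of all genes (0.393%). The 2 tissues come from the same mice and share the lung score that set the groups.

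In contrast to the lung, these medians hardly depended on CC040. Without it they were 0.36 in liver and 0.29 in kidney, without CC016 they were 0.30 and 0.27, and without both 0.29 and 0.24, with 38 and 34 of 42 genes above 0. Without the low mice CC015 and CC055 they were 0.38 and 0.34. With the groups set without Lars2 they were 0.56 in liver and 0.43 in kidney. Of the 42 genes, 23 and 25 were then higher at an unadjusted limma-voom p under 0.05. Over all genes 378 of 10190 in liver and 365 of 11931 in kidney were. With the groups set by TPM the medians were 0.21 and 0.19, and 4 and 7 of 42 were higher at this p. Over all genes 273 of 10209 and 257 of 11903 were. The size thus depended on how the lungs were scored.

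**Figure D4:**
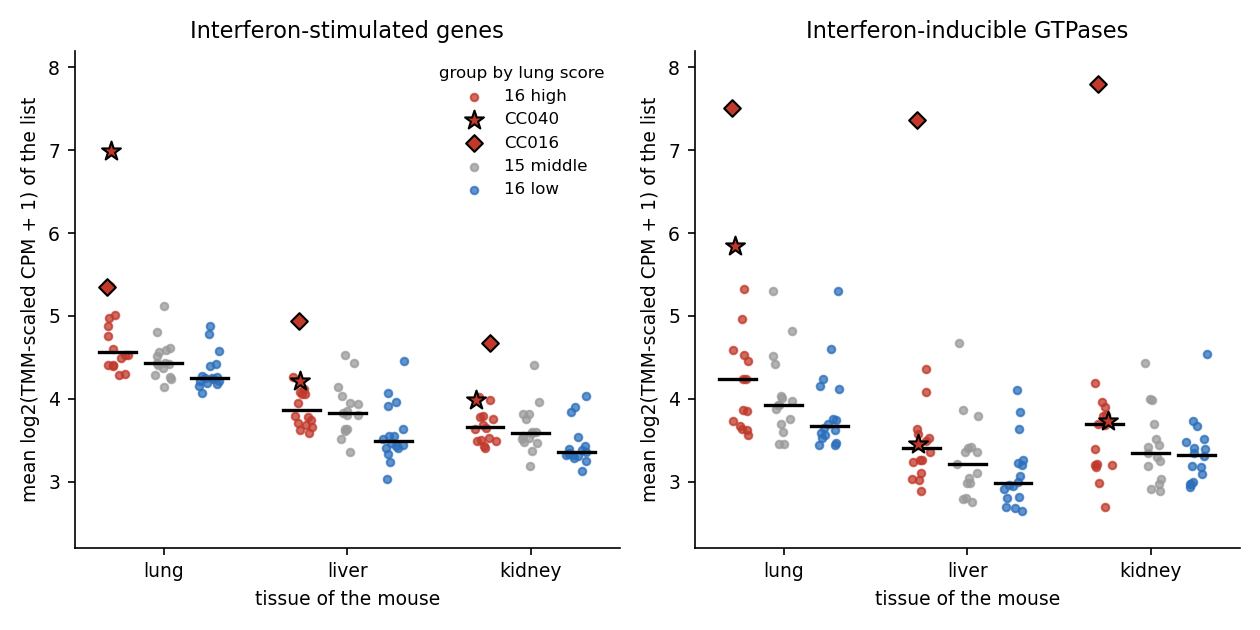
Each point is 1 mouse, with the mean log2(TMM-scaled CPM + 1) of the tested genes of a list (y axis) in its lung, liver and kidney (x axis), in red for the 16 mice with high, grey for the 15 with middle and blue for the 16 with low lung scores. Black bars are medians. For interferon-stimulated genes the medians of the high and low mice are 4.56 and 4.25 in lung, 3.87 and 3.49 in liver and 3.66 and 3.35 in kidney, with overlap in each tissue; CC040 (star) is apart in lung and CC016 (diamond) in the GTPase list of all 3.

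Among the genes with the smallest q in liver were the antiviral RNA sensor Dhx58 and the class I gene H2-D1, along with 4 genes outside the lists that were lower at the same q. Dhx58 was between 7.75 and 27 CPM with a median of 13.6 in the high and 4.64 to 16.8 CPM with a median of 7.42 in the low mice, a difference of 0.71 ± 0.17 (limma-voom, q 0.62), and H2-D1 was between 116 and 222 CPM with a median of 167 against 49.1 to 176 CPM with a median of 111, a difference of 0.68 ± 0.15 (q 0.62). For both, all 16 high livers lay above the median of the low livers, and the ranges overlapped. Ddx58 differed by 0.39 ± 0.11 (q 0.73), also with 16 of 16 above. Oasl1 was between 3.71 and 22.6 CPM with a median of 12.9 against 1.44 to 23.4 CPM with a median of 5.82, a difference of 0.99 ± 0.31 (q 0.80), Oas1a differed by 1.03 ± 0.37 (q 0.90) and Usp18 by 0.92 ± 0.39 (q 0.90). Oas2 and Oas3, which led in lung, differed by 0.39 ± 0.35 and 0.56 ± 0.35 in liver (q 0.94 and q 0.93). Outside the lists the smallest q in liver were those of the phosphatase Acp2 (0.28 ± 0.08) and the chromatin assembly subunit Chaf1b (1.14 ± 0.30) on the higher side, and Acbd3, of the Golgi (-0.28 ± 0.06), the endothelial genes Adgrl4 (-0.32 ± 0.08) and Calcrl (-0.35 ± 0.09), the protease inhibitor Reck (-0.60 ± 0.15) and pyruvate carboxylase Pcx (-0.73 ± 0.20) on the lower side, all at q between 0.62 and 0.73.

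In kidney Rtp4, an interferon target that assists receptor folding, was between 4.16 and 11.6 CPM with a median of 5.97 in the high and 2.11 to 7.97 CPM with a median of 3.92 in the low mice, a difference of 0.68 ± 0.16 (q 0.64), and it differed by 0.71 ± 0.23 in lung. Ifi209, a p200 family gene, was between 0.610 and 5.85 CPM with a median of 2.07 in the high and between 0 and 2.24 CPM with a median of 0.778 in the low mice, a difference of 1.65 ± 0.40 (q 0.64). Zbp1 differed by 1.46 ± 0.48 (q 1.0), Ifih1 by 1.06 ± 0.45 (q 1.0) and Oas2 by 0.97 ± 0.37 (q 1.0). In these the high group had the higher median and overlapped the low group. Ifi44, which differed by 1.13 in lung and 1.05 ± 0.54 in liver, was at -0.12 ± 0.28 in kidney (q 1.0). The other kidney genes with the smallest q were the endosomal sorting gene Stam2 (0.24 ± 0.06), thromboxane synthase Tbxas1 (1.31 ± 0.33) and Gm13375 (0.72 ± 0.19) on the higher side, and the potassium channel Kcnj2 (-0.61 ± 0.14), E330009J07Rik (-0.80 ± 0.20), the glucocorticoid target Klf9 (-0.27 ± 0.07), Nlrc3 (-0.79 ± 0.20) and Heatr5a (-0.23 ± 0.06) on the lower side. With the groups set by the score without Lars2, 3 kidney genes passed q ≤ 0.1 in limma-voom: Ifi209 (2.17 ± 0.35, q 0.0029), Rtp4 (0.79 ± 0.15, q 0.021) and Siglec1 (1.79 ± 0.34, q 0.021).

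The GTPase and MHC lists were also above 0 in liver and kidney, with smaller medians without CC016. The GTPases had medians of 0.40 in liver (11 of 11 above 0) and 0.49 in kidney (8 of 9), which were 0.18 and 0.28 without CC016. MHC class I and loading genes had 0.26 (13 of 14) and 0.33 (14 of 14), or 0.16 and 0.15 without CC016, and class II genes 0.58 (6 of 6) and 0.53 (7 of 7), or 0.33 and 0.26. In liver these medians also depended on other settings. With Ptprc as a covariate they were 0.08 for GTPases (8 of 11 above 0), 0.09 for class I (10 of 14) and 0.11 for class II (5 of 6), and with the groups set by TPM 0.22 (6 of 11), 0.05 (8 of 14) and 0.05 (4 of 7). In kidney they were 0.50, 0.36 and 0.60 with Ptprc and 0.38, 0.28 and 0.26 with TPM. B2m, the light chain of class I molecules, was between 165 and 3521 CPM with a median of 294 in the kidneys of the high mice, and its highest value was that of CC016. Sensors and factors had 0.29 (12 of 15) and 0.18 (11 of 17), or 0.25 and 0.11 without CC016. Macrophage genes had 0.48 (7 of 9) and 0.43 (8 of 10), or 0.37 and 0.35 without CC016. Chemokines, with 4 and 3 of 18 tested, had 0.71 (4 of 4) and 0.61 (3 of 3), or 0.47 and 0.43. With Ptprc macrophage genes had 0.16 (5 of 9) in liver and 0.39 (8 of 10) in kidney. Chemokines then had 0.17 (3 of 4) and 0.62 (3 of 3). C1qa differed by 0.54 ± 0.21 in liver (q 0.90) and 0.75 ± 0.26 in kidney (q 1.0). Interferons and receptors had medians of -0.06 and -0.01, the brakes -0.05 and -0.06, and clock genes -0.06 and 0.10. Handling and heat shock genes had a lower mean in the livers of the high mice for 8 of 9 (median -0.39, Hspa1a -1.96 ± 0.61, q 0.80) and had a median of 0.18 in kidney. The list level per liver had group medians of 3.347 in the high and 3.354 in the low mice. Its group means were 3.30 (standard deviation 0.41) and 3.61 (standard deviation 0.66). Its highest value, 5.51, was that of the low mouse CC015.

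**Figure D5:**
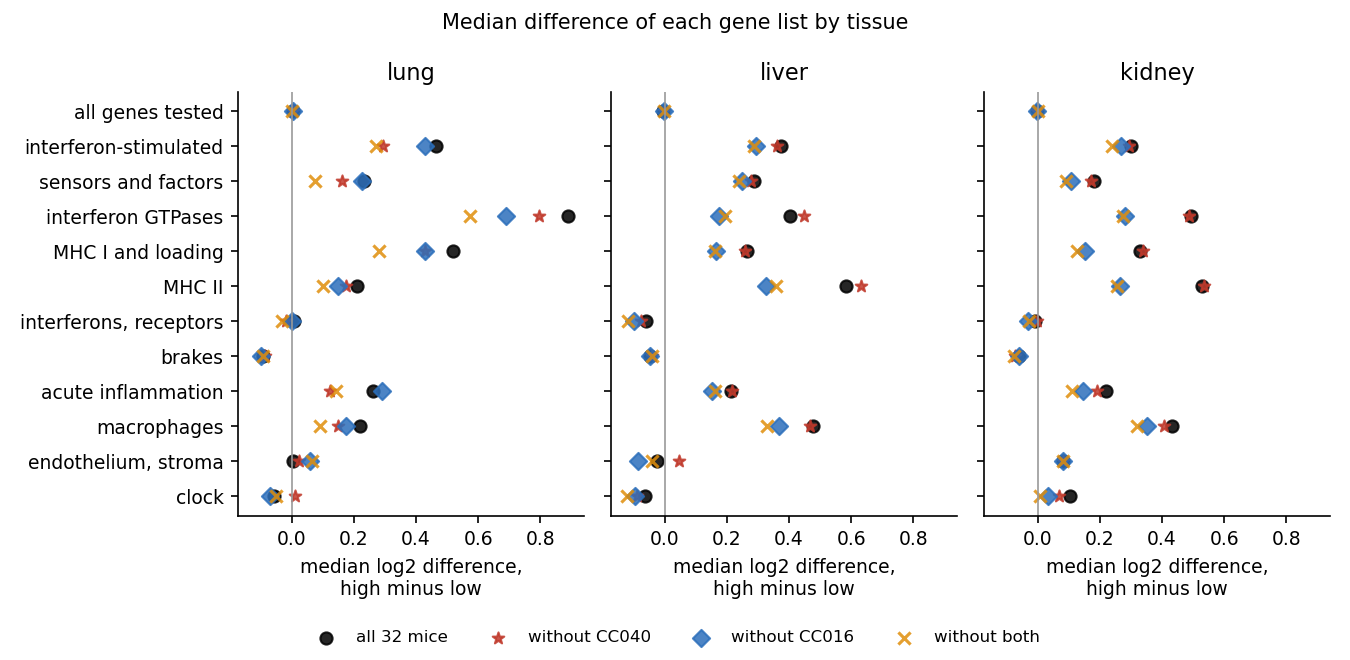
Median log2 difference, high minus low (x axis), of the tested genes of 11 lists and of all genes (y axis) in lung, liver and kidney, with all 32 mice (black circle), without CC040 (red star), without CC016 (blue diamond) and without both (orange cross). The interferon-stimulated list is above 0 in each tissue and setting (0.46, 0.37 and 0.30 with all mice), while all genes, interferons and receptors, and brakes lie near 0.

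Whether liver and kidney differed from each other was tested in 1 fit over the 64 libraries of both tissues, with the mouse as a block. No gene of 11696 reached q ≤ 0.1 for the difference between the tissues (limma-voom, smallest q 0.40), and 522 (4.46%) had an unadjusted p under 0.05, 2% with the higher difference in liver and 2.46% with the higher one in kidney. Over 43 interferon-stimulated genes the median of liver minus kidney was 0.02, with 22 of them above 0. The median standard error of a single gene in this fit was 0.20, and some genes had larger ones. Large differences with large standard errors of their own did not reach the threshold: Gm4951 at -0.91 ± 0.49 and Bst2 at -0.53 ± 0.23 had a q near 1. Lung was not part of this test, because its values chose the groups.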

How the data were processed

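RNA-seq libraries (TruSeq total RNA after ribosomal depletion, 50-base single-end reads) of lung, liver and kidney came from 1 mouse per strain. The authors aligned reads with STAR 2.5.3a to pseudo-genomes of each strain on Build37 and ran RSEM. They deposited expected counts per gene, rounded here to whole numbers for the fits, beside TPM, which was used only to score the lungs another way, and FPKM, which was not used. Rn45s was left out of counts and library sizes. Genes that passed 1 CPM in 30% or more of a tissue's 32 libraries were scaled by TMM and fitted with limma-voom (limma 3.58.1, edgeR 4.0.16, R 4.3.3), high minus low, with Benjamini-Hochberg q over all genes tested and a threshold of 0.1. CPM per gene in the text is scaled by TMM over the 47 libraries of a tissue, and the lung score uses plain CPM. The liver and kidney interaction has the mouse as a replicate block, because both tissues come from the same animal. DESeq2 1.42.0, edgeR's quasi-likelihood test and other scores, filters and mice were alternatives.

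Libraries held 2320936 to 17025147 counts in lung without Rn45s, so 3 counts were 0.176 to 1.29 CPM. No 2 libraries of a tissue held identical values. Labels give no batch or date. With 16 mice a group, tested on simulated liver counts, 179 of 200 genes changed 2-fold were recovered among 10100 genes, with 28 false calls, and 193 of 200 changed 3-fold among 10086 genes. The changed genes were drawn only from those with higher counts, and smaller changes, such as the liver interferon median of 0.37, were not simulated. In the real livers Chaf1b differed by 1.14 ± 0.30 and was not called (limma-voom, q 0.73). The absence of calls therefore does not exclude changes of this size.

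The groups and the 22 gene lists were chosen with earlier results of these data known. Genes named come, from each list, from the tested members with the largest lung difference (up to 10 interferon-stimulated genes and 4 of any other list). List members past q ≤ 0.1 in liver or kidney and members whose role a sentence describes are named too. So are the 10 genes outside the lists with the largest lung difference in each direction at a mean of 5 CPM or more in the higher group. The 5 with the smallest q in each direction in liver and kidney complete the rule. Not every list member chosen this way is given a difference, so a member not named can differ more than one that is. Others are said to be picked after their values were seen. A result for 1 gene of the lists is not reported here.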

Additional observations from a re-analysis of the deposited data

Results flagged for a closer look

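Outside the comparisons, the ribosomal RNA gene Rn45s, which the fits left out, took a median of 18.0% of the counts of a lung library, although the libraries were made after ribosomal depletion. Lars2 took a median of 7.75% of the lung counts without Rn45s. Its part in the grouping of the lungs was measured by the score without it, and its source was not tested.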

How the results depend on the processing

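The counts of genes past q ≤ 0.1, over all genes and in the interferon list, were all 0 as reported. Of 112 such counts under alternative settings, 99 were again 0. Of 725 values of single genes 718 kept their direction and side of the threshold. The settings with a q threshold of 0.01 or an absolute log2 difference of at least 1 only made the call of the same fit stricter. They could give nothing but 0 and the same direction, so they add no information. Genes past q ≤ 0.1 numbered 0 in each tissue as reported and with edgeR's quasi-likelihood test. In lung there were 3 with DESeq2 (Ercc5, Oas3 and Tap1) and 29 with Lars2 left out of the score. With the lung score as a number there were 705 over 47 libraries, 25 without CC040, and 15 without CC040 and CC016. These lung counts are a description without a test, because the same lungs set the groups and the score. In liver there were 3 with DESeq2 (Mup12, Col5a2 and Cyp2d12), 8 with the score as a number, 1 without CC040 (Defb1) and 1 without CC040 and CC016 (Gstp2), and in kidney 4 with the score as a number (Spock2, Hc, Aox1 and Hspb8) and 3 with Lars2 left out, 1 of them (Rtp4) in the interferon list. The interaction had 0 calls with and without the replicate block, and 1 (Prrt2) without CC016. Reversed were Oas2 in liver with the TPM score (-0.040), Gm4951 in liver with Lars2 left out (-0.16), and Ifi44 in kidney, with DESeq2 (0.011), edgeR (0.0074) and Lars2 left out (0.051). The cause was not tested. Settings that leave out mice or Lars2 were chosen after seeing the data. Interferon-stimulated genes with an unadjusted p under 0.05 and a higher level ranged from 4 to 23 in liver and from 7 to 27 in kidney over 20 settings. In the limma-voom fit as reported they were 14 of 42 and 23 of 42, against 2.68% of all liver and 2.16% of all kidney genes. Irf7 at 3 counts or fewer in most lungs limits the score.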
